A study of Rattus norvegicus with 127 samples.

Results

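Ccl2, Ccl3 and Ccl4, which encode secreted chemokines that draw monocytes and other leukocytes, and Ccr2, which encodes the receptor for the Ccl2 protein, were followed across every condition of a rat pelvic floor injury study. They are 4 of the 134 genes on its panel and were taken as a named list. The list was chosen with earlier results of these data known. The deposited value table carries no gene names, so each row was tied to a gene by setting its log2 ratios of group means against those in the authors' deposited table of fold changes. All 4 were the best match in both directions, with median differences of 0.0033 for Ccl2, 0.0077 for Ccl3, 0.0046 for Ccl4 and 0.0028 for Ccr2 on the log2 scale. SBI days 3 and 7 were left out of the matching, and there the authors' deposited table parts from the ratio of means over all samples: 2.60 against 4.02 for Ccl3, 4.14 against 4.65 for Ccl2 and 1.94 against 2.44 for Ccr2 at day 3.

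Ccl2, also known as MCP-1, binds Ccr2 on classical monocytes, which leave the bone marrow and enter damaged tissue along its gradient. Ccl3 and Ccl4, the MIP-1 alpha and beta proteins, act on other chemokine receptors and also draw leukocytes to inflamed tissue. In injured skeletal muscle monocytes that express Ccr2 are a known source of the macrophages that clear dead fibres and then accompany regeneration. In the rat the genes have the NCBI gene IDs 24770 (Ccl2), 25542 (Ccl3), 116637 (Ccl4) and 60463 (Ccr2). Ccl2, Ccl3 and Ccl4 lie on chromosome 10, where Ccl3 and Ccl4 are neighbouring coding genes, and Ccr2 lies on chromosome 8. The probe sequences were not used here, and cross-reaction between the related ligands was not tested.

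RNA came from the pubocaudalis, a skeletal muscle of the pelvic floor, of Sprague Dawley rats. Inputs of 50 to 100 ng were measured on a custom nCounter panel, an assay that counts RNA molecules through barcoded probes. Immediate injection of SKM, a hydrogel made from the matrix of skeletal muscle, had 9 samples at day 3 and 8 at day 7, against 9 and 9 for immediate saline. Delayed SKM had 9 samples at day 3, 9 at day 7 and 6 at week 8, against 9, 10 and 5 for delayed saline. Simulated birth injury (SBI) with no injection was sampled on 7 days: day 1 (3 samples), day 3 (8), day 7 (6), day 10 (3), and days 31, 35 and 84 (6 each), against 3 uninjured samples. Every injected group also carried the injury, and all groups were of the same strain and muscle. The model is a simulated injury, not a birth, and the samples are of whole muscle. The labels leave unsaid if each sample is its own animal, and p-values then reflect only sample-to-sample spread, which may be technical.

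Recovered counts summed to between 366294 and 1824478 per sample. The deposited 127 samples held 3 pairs with identical counts in all 134 genes but different scaling. The signal value of 1 count was 0.768 and 1.095 in the SBI day 3 pair. In the SBI day 7 pairs it was 2.416 and 2.658, and 0.655 and 0.67. The values of each pair were averaged and taken as 1 sample, leaving 124. The median log2 value of the panel lay between 9.51 and 10.95 in 15 groups, but at 8.46 in SBI day 84, 8.45 in delayed SKM week 8 and 8.51 in delayed saline week 8. Each result is therefore given on the deposited scale, log2(value + 1), and, where the answer parts, after centring each sample on its own panel median. The 9 muscle fibre genes of a list of 11 that the panel holds summed to 1562632 to 1650206 in uninjured samples, so markers of the labelled tissue were present. Counts were ample for Ccr2 (median 742.5) and Ccl2 (308.5), lower for Ccl3 (83) and low for Ccl4 (13.5), which had under 20 counts in 74 of 124 samples and 0 in 9.

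Of the 4 genes, only Ccr2 has its promoter in the reference tables used. The 250 bases before its RefSeq start, on the plus strand of rat build GRCr8 at chr8:132611953-132612202, are shown because Ccr2 is the member with the smallest spread within groups. Capitals mark the core GGAAA and its reverse complement.
Ccr2 promoter: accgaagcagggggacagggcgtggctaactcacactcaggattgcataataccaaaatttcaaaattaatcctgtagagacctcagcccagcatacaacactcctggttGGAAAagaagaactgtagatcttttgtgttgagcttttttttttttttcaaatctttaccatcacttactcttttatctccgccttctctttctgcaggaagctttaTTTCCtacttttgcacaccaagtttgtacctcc
The core GGAAA occurs at -140 to -136 on the plus strand and at -33 to -29 on the other strand, counted back from the start. It is common, since 56.9% of 33469 promoters of this length hold it. No match to the NF-kappaB site, the AP-1 site TGANTCA or the TATA box TATAAA was found on either strand of this window. Those motifs occur in 6.33%, 6.34% and 12.9% of the promoters. Promoters of Ccl2, Ccl3 and Ccl4 were not analysed here.

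The first comparison asks how the chemokine genes follow the injury in time. All 4 genes differed over the 7 injury days by the moderated F test of limma, on both scales, as did 99.3% of the panel. Against uninjured muscle, limma called Ccl2, Ccl3 and Ccr2 higher on each of days 1, 3 and 7 and called Ccl4 on none of these days. The call rule is an adjusted p under 0.05, with Benjamini-Hochberg adjustment over the 134 genes. By that rule 64.9% of the panel was called at day 1, 73.1% at day 3 and 56.7% at day 7. Calls of any kind were therefore common on these days, and the sizes of the differences carry more than the counts. The calls moved with the model: with only the groups compared in the fit, limma called no member at day 7 (adjusted p between 0.0683 and 0.119) and lost Ccl3 at day 1 (0.0619) and day 3 (0.103), while it called Ccl4 at day 3 (0.00112). Voom weights lost Ccl3 at days 3 (adjusted p = 0.185) and 7 (0.246), and sample weights called all 4 genes, Ccl4 included, on all 3 days. Over the panel, the fit of only the groups compared called 77, 92 and 2 of 134 genes on days 1, 3 and 7. Voom weights called 82, 91 and 68 on these days, and sample weights 104, 111 and 94.

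Ccl2 made the largest move of the 4 at days 1 and 3. It read 26301, 4331 and 31618 in the SBI day 1 samples, against 206, 124 and 162 in the uninjured ones. All 3 injured samples were far above the uninjured range, although the second was several times below the other two. The fitted difference was 6.57 ± 0.95 (log2, SE), which is 94.97-fold, at an adjusted p of 1.02e-08. By day 3 the values lay at 1061, 2461 and 9293 (lowest, median and highest of 8), and the difference from uninjured was 4.21 ± 0.79, or 18.5-fold (adjusted p = 1.71e-06). By day 7 they lay at 220, 1174 and 2855 (of 6), a difference of 2.40 ± 0.82 or 5.29-fold (adjusted p = 0.011). Neither day overlapped the uninjured samples.

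Ccl3 rose less and far less evenly. The SBI day 1 samples held 6312, 104 and 1553, against 87.7, 30.5 and 84.2 in uninjured muscle. The second injured sample, the same one that was low in Ccl2, was barely above the uninjured range. The difference was 4.03 ± 1.13, or 16.3-fold (adjusted p = 0.001), and without SBI day 1 replicate 1 it was 2.70 (adjusted p = 0.056). At day 3 Ccl3 ran from 51.4 through a median of 218 to 5140, so the groups overlapped, and at day 7 from 99.4 through 260 to 3846, so they did not. The differences were 2.33 ± 0.93 (adjusted p = 0.02) and 2.42 ± 0.98 (adjusted p = 0.029). The day 3 call was lost without uninjured replicate 2 (1.85, adjusted p = 0.122), SBI day 3 replicate 6 (1.97, 0.0532) or SBI day 3 replicate 9 (1.76, 0.0744).

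Ccl4 stayed near the bottom of the measurable range. Its values were 162, 11.1 and 63.1 at SBI day 1, against 5.31, 20.3 and 13.2 in uninjured muscle. The difference of 2.01 ± 1.24 did not pass (adjusted p = 0.141), with a 95% interval from -0.44 to 4.46. Leaving out SBI day 1 replicate 2, the low sample named above, made it 3.04 (adjusted p = 0.0399). Over all 6 leave-one-out fits the day 1 difference of Ccl4 ran from 1.16 to 3.04, with adjusted p up to 0.46. The 8 day 3 samples lay at 32.0, 43.8 and 65.7 (lowest, median and highest), all above the uninjured samples, and differed by 1.84 ± 1.03 (adjusted p = 0.098). At day 7 Ccl4 lay at 0.10, 39.5 and 77.4, where 0.10 is the deposited floor for a count of 0, and the difference was 1.09 ± 1.07 (adjusted p = 0.376).

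Ccr2, the receptor gene, moved in a narrower band than Ccl2 with less scatter. It read 3739, 1540 and 5099 at SBI day 1, against 489, 276 and 538 in uninjured samples, with no overlap. The difference was 2.88 ± 0.58, or 7.38-fold (adjusted p = 1.13e-05). At day 3 it lay at 1056, 1265 and 4918 and at day 7 at 604, 1250 and 1898 (lowest, median and highest), still clear of the uninjured range on both days. The differences were 2.04 ± 0.48 (adjusted p = 9.94e-05) and 1.50 ± 0.50 (adjusted p = 0.01). All 3 day 7 calls were lost when uninjured replicate 2, which was the lowest uninjured sample in Ccl2, Ccl3 and Ccr2, was left out. The values then were 2.22 for Ccl2 (adjusted p = 0.059), 1.93 for Ccl3 (0.155) and 1.20 for Ccr2 (0.0899). Without SBI day 7 replicate 1 the Ccl3 difference at day 7 was 1.71 (adjusted p = 0.138).

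**Figure D1:**
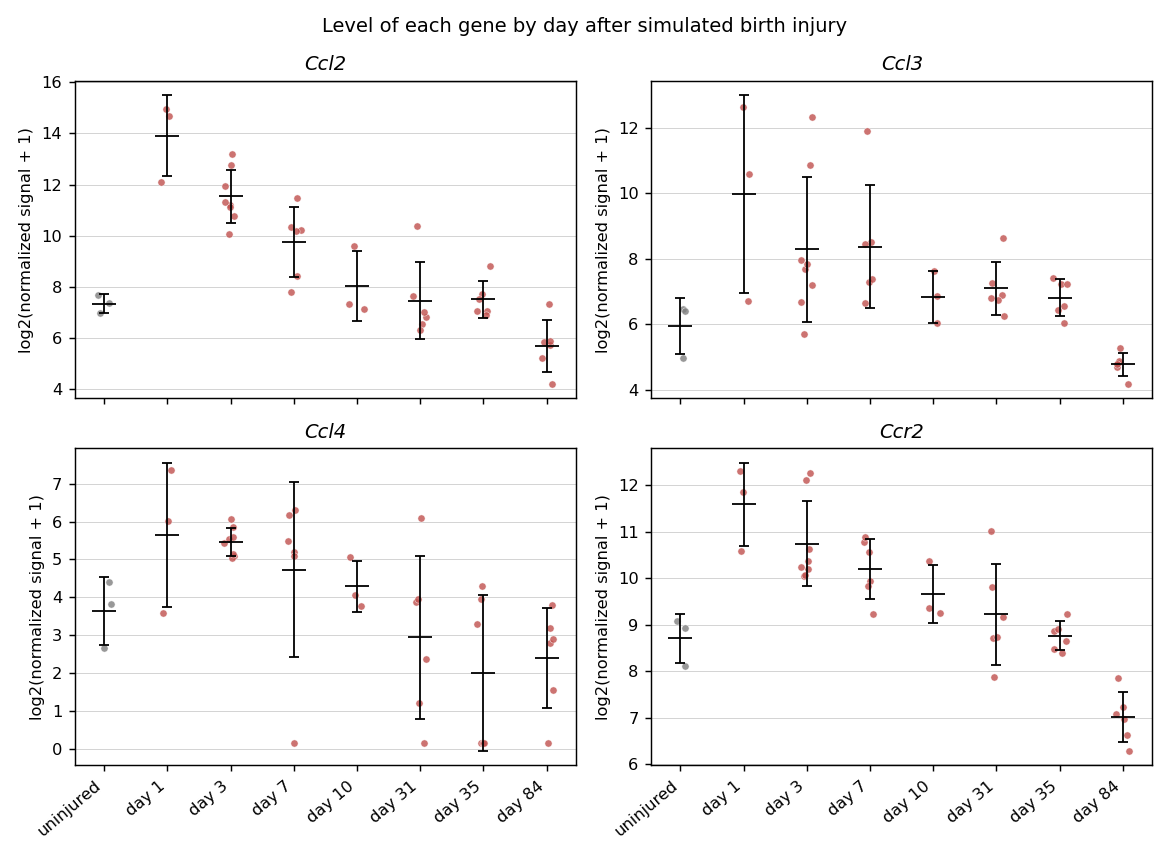
Each panel plots log2(normalized signal + 1) of 1 gene for uninjured muscle and 7 days after injury; points are samples and bars are the group mean ± SD. Ccl2 and Ccr2 are highest at day 1 and lie lower at each later day up to day 10, Ccl3 spreads widely at days 1, 3 and 7, and several Ccl4 points lie at the floor.

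None of the 4 genes was called at day 10, day 31 or day 35, when 8.96%, 0% and 0% of the panel was. At an unadjusted p under 0.05 limma also called 0 of the 4 on those days, and voom weights gave 0 calls. At day 10 Ccl2 read 158, 139 and 774, Ccl3 65.1, 116 and 195, and Ccl4 12.5, 15.6 and 32.2. Ccr2 read 659, 608 and 1334 at day 10 and did not overlap the uninjured samples, though its difference of 0.96 ± 0.58 did not pass (adjusted p = 0.242). Ccl2 medians were 120 at day 31, just under the lowest uninjured sample, and 156 at day 35, inside the uninjured range, with differences of 0.11 ± 0.82 and 0.17 ± 0.82. The 95% interval at day 31, from -1.51 to 1.74, leaves room for a change of either sign.

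At day 84 the 2 scales parted. Ccr2 lay at 77.1, 130 and 230, all below the uninjured samples, and its deposited difference was -1.69 ± 0.50 (adjusted p = 0.001). On that day 80.6% of the panel was called, every one of them lower, and the median difference over all genes was -1.72. After centring, when 1.49% of the panel was called, the Ccr2 difference was 0.08 (adjusted p = 0.939). Ccl2 likewise stood at -1.64 ± 0.82 on the deposited scale (adjusted p = 0.059) and at 0.13 after centring. Without SBI day 84 replicate 1 the deposited Ccl2 difference was -1.97 (adjusted p = 0.0274).

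Genes of related function on the panel gave a setting for these changes. From a list of other chemokines and receptors, Cxcl1 and Cxcr2 were read, and both were higher than uninjured at days 1 and 3. Cxcr2, the receptor for neutrophil chemokines, had a difference of 6.25 at day 1 (adjusted p = 0.0011). Cxcl1, a neutrophil-drawing chemokine, had 4.57 (adjusted p = 0.0079), beside a median of -0.66 over all 134 genes. At day 7 neither passed, with 1.04 for Cxcr2 (adjusted p = 0.5451) and 1.69 for Cxcl1 (adjusted p = 0.2671).

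The list of inducers, cytokines and signalling genes that can switch chemokine genes on, has 7 of 12 genes here. At day 1 limma called 4 of them higher and 1 lower, at day 3 it called 3 and 1, and at day 7 it called 2 and 1. Il1b, the interleukin-1 beta gene, had the largest difference at day 1, at 6.32 (adjusted p = 0.000584). The 1 that was lower was the row given the name Ikbkb, whose match by value is weak: its median difference was 0.2325, and another row came closer, at 0.068.

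Cell type markers moved too. Of 4 macrophage genes of 13 listed, 3 were called higher at day 1, 4 at day 3 and 1 at day 7. Adgre1, which encodes the macrophage surface protein F4/80, had a difference of 0.45 at day 1, which did not pass (adjusted p = 0.668), but of 2.71 at day 3 (adjusted p = 0.0013) and 2.47 at day 7 (adjusted p = 0.0091). The summed macrophage level ran from 478 to 16358 at day 1, 1087 to 27975 at day 3 and 759 to 16412 at day 7, against 256 to 599 in uninjured muscle. At day 1 Adgre1 by itself ran from 307 to 486, against 177 to 404 in uninjured muscle. The rest of the sum is of Arg1, Nos2 and Mmp12. The 9 muscle fibre genes included 6, 8 and 4 that were lower on the 3 days, and their sum ran from 356750 to 774574 at day 1. In bulk samples, fewer cells of a type and less RNA per cell cannot be told apart, and the part of cell makeup in the chemokine differences was not tested.

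The next question is whether SKM changed these genes relative to saline. Limma called 2 of 20 gene-by-time differences, both at day 7 after delayed injection, where Ccl2 and Ccr2 were higher after SKM. There 14.9% of the panel was called, all of it higher. No member was called on the deposited scale in the other 4 comparisons, in which 0% (immediate day 3), 0% (immediate day 7), 6.72% (delayed day 3) and 0% (delayed week 8) of the panel was called. At an unadjusted limma p under 0.05, 8 of the 134 genes passed at immediate day 3 and 40 at delayed day 3. In these 4 comparisons the members at that cut-off were Ccl3 at immediate day 3 and Ccl2, Ccl4 and Ccr2 at delayed day 3. The exact permutation test, two-sided and unadjusted, differed for 2 of them: it gave 0.148 for Ccl3 at immediate day 3 and, at delayed day 3, 0.112 for Ccl4, 0.0148 for Ccl3, 0.0293 for Ccl2 and 0.0131 for Ccr2.

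At delayed day 7 Ccl2 lay at 24.6, 245 and 988 after SKM, against 43.5, 81.6 and 133 after saline (lowest, median and highest). The SKM samples spread over a far wider range and included the lowest value of both groups. The difference was 1.63 ± 0.53 (adjusted p = 0.032), and 1.37 after centring (adjusted p = 0.052), when 7.46% of the panel was called. An exact two-sided permutation test of this difference on the deposited scale gave an unadjusted p of 0.0153. The call was lost without delayed saline replicates 3 or 8 or delayed SKM replicates 5, 8 or 9, where the difference ran from 1.37 to 1.56 and the adjusted p from 0.0573 to 0.14. It was also lost with voom weights (adjusted p = 0.0716) and with only the groups compared (0.0691).

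Ccr2 was the steadier of the pair. It lay at 299, 657 and 961 after delayed SKM, against 147, 293 and 683 after delayed saline at day 7. The groups overlapped, but the SKM median lay close to the top of the saline range. The difference was 1.16 ± 0.32 (adjusted p = 0.012), and 0.90 after centring (adjusted p = 0.03). The exact permutation test gave an unadjusted p of 0.00139. Without delayed SKM day 7 replicate 8 the difference was 1.08 (adjusted p = 0.0575). As log2 ratios of arithmetic means, the authors' deposited table gives 2.384 for Ccl2 and 1.088 for Ccr2 in this comparison.

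Ccl4 lay at 4.48, 16.1 and 83.7 after delayed SKM at day 7, against 0.10, 5.05 and 13.6 after saline. Its difference of 1.81 ± 0.70 did not pass (adjusted p = 0.054), and it passed when any one of delayed saline replicates 1, 6 or 9 or delayed SKM replicates 1 or 6 was left out, at adjusted p between 0.0248 and 0.0484. The exact permutation test gave an unadjusted p of 0.00264 for Ccl4. These levels come from few counts, at most 16 in a saline sample. Ccl3 at 48.0, 74.6 and 380 against 34.8, 48.9 and 85.2 differed by 0.83 ± 0.63 (adjusted p = 0.369; unadjusted exact permutation p = 0.0259).

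At day 3 after delayed injection all 4 fitted differences were positive, and none passed on the deposited scale. Ccr2 lay at 586, 1346 and 2237 after SKM, against 250, 820 and 1358 after saline. Its difference was 0.87 ± 0.33 (adjusted p = 0.092), and after centring 0.86 (adjusted p = 0.032), with 11.2% of the panel called. Ccl2 lay at 248, 600 and 2604 after SKM, against 157, 276 and 826 after saline, a difference of 1.09 ± 0.55 (adjusted p = 0.165). With only the groups compared, Ccr2 (adjusted p = 0.0353) and Ccl3 (0.0381) passed, and with sample weights all 4 did. Over the whole panel these fits called 48 and 61 genes, against 9 in the main fit. Ccl4 differed by 1.49 ± 0.71 (adjusted p = 0.162) and Ccl3 by 0.87 ± 0.65 (adjusted p = 0.294). Ccl4 lay at 0.10, 31.0 and 511 after SKM, the highest in replicate 8, against 1.06, 10.2 and 34.9 after saline. Without delayed SKM day 3 replicate 5, in which Ccl4 had 0 counts, the Ccl4 difference was 2.08 (adjusted p = 0.0441), and without replicate 1 that of Ccr2 was 1.01 (adjusted p = 0.0426). Over the 18 leave-one-out fits the Ccl4 difference ran from 0.98 to 2.08, with adjusted p up to 0.33. That of Ccr2 ran from 0.68 to 1.01, with adjusted p up to 0.22.

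After immediate injection the fitted differences at day 3 were all negative, and none passed. Ccl3 lay at 181, 311 and 2255 after SKM, against 120, 2835 and 18693 after saline. The saline samples thus held both the lowest and the highest values. The difference was -1.53 ± 0.65 (adjusted p = 0.541), and with sample weights -1.89 (adjusted p = 0.00112). Sample weights called 31 genes of the whole panel in this comparison, against 0 in the main fit. Ccl2 at 1249, 3371 and 7527 after SKM, against 2478, 6293 and 25399 after saline, differed by -0.85 ± 0.55 (adjusted p = 0.972). Ccl4 at -0.02 ± 0.71 and Ccr2 at -0.38 ± 0.33 were closer to 0. At immediate day 7 the 4 differences lay between -0.38 and 0.06, and at week 8 between -0.08 and 0.11. The week 8 intervals are wide, from -1.29 to 1.50 for Ccl2, and from -0.93 to 0.77 for Ccr2.

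**Figure D2:**
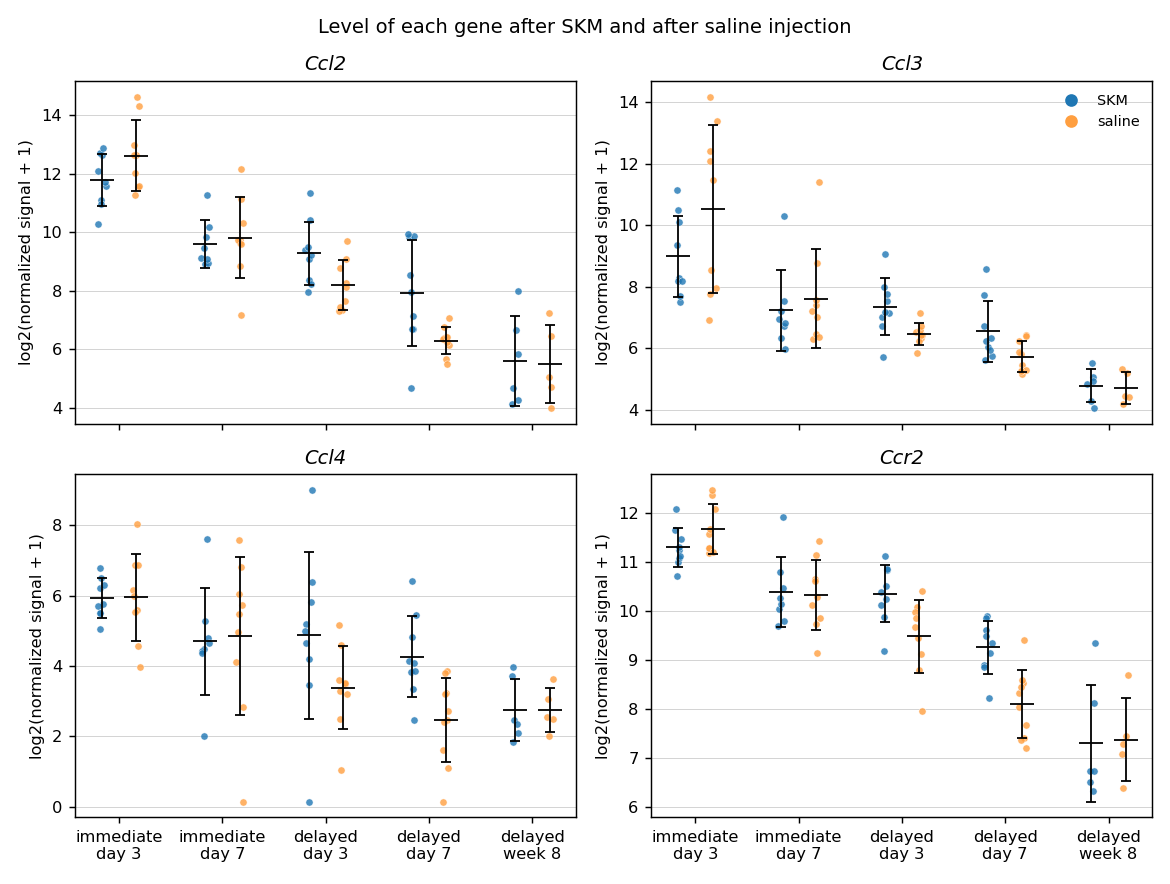
Each panel plots log2(normalized signal + 1) of 1 gene after SKM (left of each pair) and saline (right) at 5 times; points are samples and bars are the mean ± SD. The delayed day 7 pair shows higher means of Ccl2 and Ccr2 after SKM, and the SKM and saline samples overlap in every pair.

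Whether the SKM difference itself differed between delayed and immediate injection was tested directly, as delayed effect minus immediate effect. No member passed at either day, with 0% of the panel called at day 3 and 1.49% at day 7. At day 3 the difference of effects was 1.94 ± 0.77 for Ccl2 (adjusted p = 0.122), 2.40 ± 0.92 for Ccl3 (0.106), 1.52 ± 1.01 for Ccl4 (0.25) and 1.25 ± 0.47 for Ccr2 (0.106). At day 7 it was 1.84 ± 0.78 (0.096), 1.21 ± 0.92 (0.351), 1.97 ± 1.01 (0.176) and 1.10 ± 0.47 (0.104), in the same order. Sample weights called all 4 at day 3 and 2 at day 7. Over the whole panel, however, sample weights called 75 genes at day 3 and 39 at day 7, so these calls were not particular to the members. Every estimate was positive, and 3 of 4 at day 3 and 2 of 4 at day 7 had an unadjusted p under 0.05. At that cut-off 33 of the 134 genes passed at day 3 and 40 at day 7. The median over all genes was also positive, at 0.18 and 0.45. Leaving out 1 sample brought calls in 4 cases. Without immediate SKM day 7 replicate 7, 2 members passed at day 7, Ccl2 at 2.08 (adjusted p = 0.0465) and Ccr2 at 1.32 (adjusted p = 0.0361). Ccl2 at day 7 also passed without immediate saline replicate 4 (2.17, adjusted p = 0.0475) or delayed SKM replicate 1 (2.25, 0.0302). Ccl3 at day 3 passed without immediate saline replicate 3 (2.85, adjusted p = 0.0482).

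Related genes were read at the same times. In delayed SKM against delayed saline, Cxcl1 and Cxcr2 did not pass at either day. Adgre1 was higher after SKM by 2.10 at both days (adjusted p = 0.0087 at day 3 and 0.0088 at day 7). Mmp12, a macrophage metalloelastase gene, had 3.69 at day 7 (adjusted p = 0.0359), which after centring was 3.44 (adjusted p = 0.0524). Of the 7 inducers, 2 were called higher at day 3, Il1b and Myd88, on both scales, and 3 at day 7, Il1b, Tnf and Myd88, with 0 after centring. The summed macrophage level ran from 293 to 11219 after delayed SKM at day 7, against 230 to 940 after saline, and from 1257 to 12700 at day 3, against 470 to 2518. Of the 4 macrophage genes 1 was called higher at day 3 and 2 at day 7, or 2 and 1 after centring. Arg1 and Nos2 did not pass at either day. The part of macrophage makeup in the Ccl2 and Ccr2 differences was not tested.

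**Figure D3:**
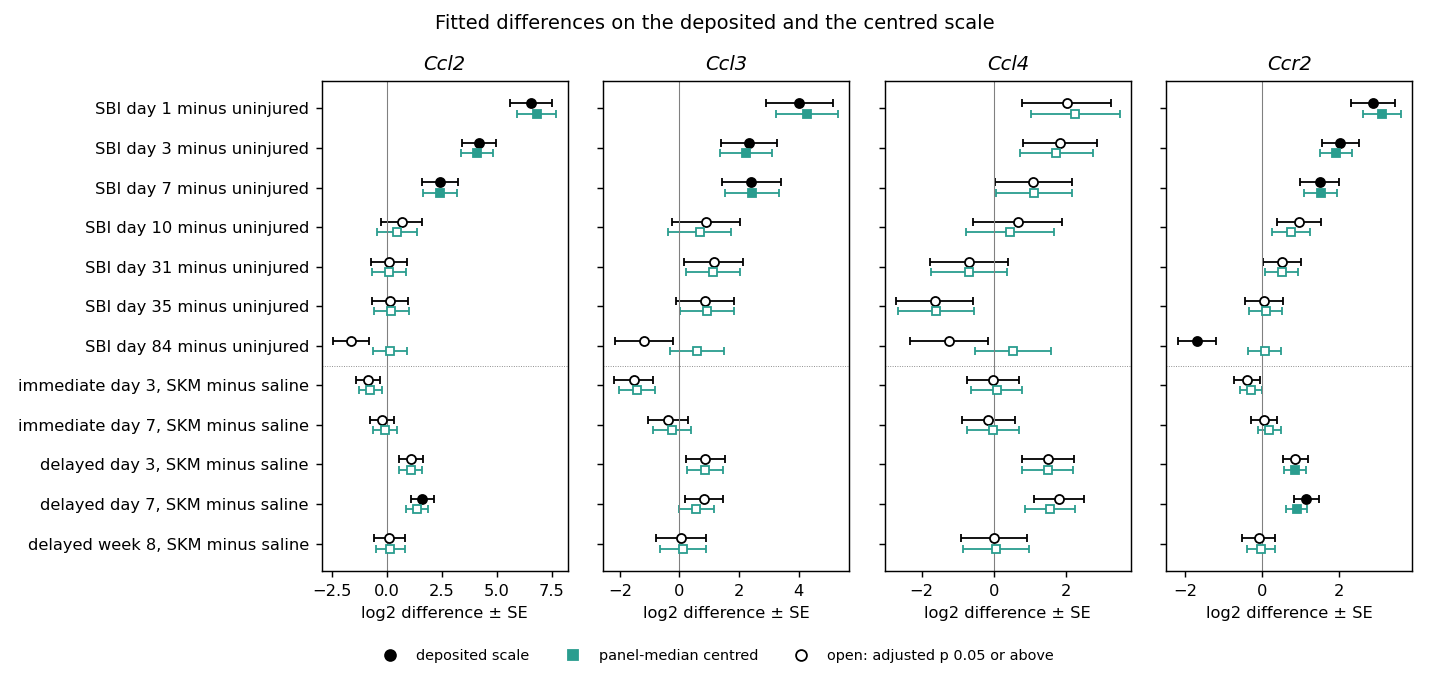
Points are fitted log2 differences ± SE of each gene on the deposited scale (black circles) and after panel-median centring (green squares), for 7 injury days and 5 SKM comparisons; filled points passed adjusted p 0.05. The scales lie close together except at day 84, where the deposited Ccr2 difference is -1.69 and the centred one 0.08.

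Injection itself was examined by setting each saline group against injury alone at the matching time. SBI days 31, 35 and 84 lie 28 days past days 3 and 7 and week 8 of the delayed arms, and were matched to them. At immediate day 3, where 44.8% of the panel was called, all of it higher, Ccl3 differed by 2.24 ± 0.67 (adjusted p = 0.004). Its values were 120, 2835 and 18693 after saline, against 51.4, 218 and 5140 after injury alone. Ccr2 at 2323, 3067 and 5705 after saline, against 1056, 1265 and 4918 after injury alone, differed by 0.94 ± 0.34 (adjusted p = 0.018). The median difference over all genes was 0.55, and after centring, when 0.746% of the panel was called, Ccl3 stood at 1.62 (adjusted p = 0.484) and Ccr2 at 0.32 (adjusted p = 0.858). Without SBI day 3 replicate 2 the Ccr2 difference was 0.84 (adjusted p = 0.0511), and with only the groups compared Ccl3 had an adjusted p of 0.121.

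Ccl2 and Ccl4 were not called in that comparison, with differences of 1.08 ± 0.56 (adjusted p = 0.11) and 0.48 ± 0.74 (0.58). Without SBI day 3 replicate 9 the Ccl2 difference was 1.31 (adjusted p = 0.0494). No member was called at immediate day 7 (2.24% of the panel called), delayed day 3 (2.24%), delayed day 7 (54.5%) or week 8 (0%). At delayed day 7, where most calls were lower after saline, the Ccl2 difference was -1.21 ± 0.60 (adjusted p = 0.075) and -0.54 after centring.

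SKM groups set against the same injury samples shared those samples with the saline comparisons, so the 2 sets of values are not independent. No member was called at immediate day 3, although 37.3% of the panel was, nor at immediate day 7 (0%) or week 8 (0%). At delayed day 3, where 12.7% of the panel was called, Ccl2 exceeded SBI day 31 by 1.83 ± 0.61 (adjusted p = 0.042) and Ccr2 by 1.13 ± 0.37 (adjusted p = 0.042). The medians were 600 for Ccl2 after SKM, against 120 after injury alone, and 1346 for Ccr2, against 501. After centring the differences were 1.92 (adjusted p = 0.018) and 1.22 (adjusted p = 0.008). Both calls were lost with only the groups compared (adjusted p = 0.0648 for each), and Ccl2 also with voom weights (0.0582). Leaving out 1 of the 15 samples in turn lost the Ccl2 call 10 times and the Ccr2 call 8 times, at adjusted p of at most 0.112. Ccl4 differed from SBI day 31 by 1.93 ± 0.80 (adjusted p = 0.072), and passed without SBI day 31 replicate 1 (2.56, 0.0145) or delayed SKM day 3 replicate 5 (2.52, 0.0245). Its leave-one-out differences ran from 1.37 to 2.56, with adjusted p up to 0.25. The matching saline differences were 0.74 ± 0.61 for Ccl2 (adjusted p = 0.642) and 0.26 ± 0.37 for Ccr2 (0.865).

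At delayed day 7, where 39.6% of the panel was called, mostly lower, Ccl4 exceeded SBI day 35 by 2.27 ± 0.80 (adjusted p = 0.017). The SKM values lay at 4.48, 16.1 and 83.7, against 0.10, 4.50 and 18.6 after injury alone, where 3 of 6 samples had 0 counts. After centring the difference was 2.70 (adjusted p = 0.06), with 0.746% of the panel called. Leaving out any one of the 3 samples at 0, SBI day 35 replicates 2, 4 or 6, gave 1.90 at adjusted p between 0.0617 and 0.0721. With a pseudocount of 10 in place of 1 the Ccl4 difference was 0.95 (adjusted p = 0.09), and the call was lost.

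Differences between times were next. Of 8 pairs of times and 4 genes, 14 of 32 differences were called, every one lower at the later time, 7 of them in Ccl2, 5 in Ccr2, 2 in Ccl3 and 0 in Ccl4. In injury alone Ccl2 fell by 2.36 ± 0.79 at day 3 relative to day 1 (adjusted p = 0.011; 35.1% of the panel called). It fell by 1.80 ± 0.63 at day 7 relative to day 3 (adjusted p = 0.018; 35.1%) and by 2.29 ± 0.67 at day 31 relative to day 7 (adjusted p = 0.005; 41.8%). No member was called at day 10 against day 7 (5.22%). With only the groups compared, the day 7 (adjusted p = 0.0849) and day 31 (0.0898) calls were lost, and with sample weights the day 7 difference was -1.21 (adjusted p = 0.118). Without SBI day 1 replicates 1 or 3 the day 3 difference was -1.97 or -1.84 (adjusted p = 0.0929 and 0.124). Without SBI day 7 replicates 3 or 5 the day 7 difference was -1.41 or -1.54 (adjusted p = 0.0974 and 0.0771).

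Ccr2 differed by -0.85 ± 0.48 at SBI day 3 relative to day 1 (adjusted p = 0.168) and by -1.20 after centring (adjusted p = 0.016; 35.1% of the panel called on that scale). At day 31 relative to day 7 it fell by 0.98 ± 0.41 (adjusted p = 0.045), a call that was lost in 8 of 12 leave-one-out fits and with only the groups compared (adjusted p = 0.167) or identical samples kept apart (0.0781). Ccl4 stood at -1.79 ± 0.87 between the same days (adjusted p = 0.084), and passed without SBI day 7 replicate 3 (-2.71, 0.0083) or SBI day 31 replicate 1 (-2.42, 0.02). Its leave-one-out differences ran from -2.71 to -1.23, with adjusted p up to 0.26. Ccl3 at day 3 relative to day 1 stood at -1.69 ± 0.93 (adjusted p = 0.163), and without SBI day 1 replicate 2 at -3.33 (adjusted p = 0.00781) or without SBI day 3 replicate 9 at -2.27 (0.043). Over all 11 leave-one-out fits the Ccl3 difference ran from -3.33 to -0.37, with adjusted p up to 0.86, so it hung on single samples. Leaving out SBI day 1 replicate 2 also put Ccr2 at -1.35 (adjusted p = 0.0465), within a leave-one-out range of -1.35 to -0.49 (adjusted p up to 0.55).

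After immediate injection the drop by day 7 relative to day 3 was large in both arms. With SKM, where 50.7% of the panel was called, Ccl2 fell by 2.18 ± 0.56 (adjusted p = 0.001), Ccl3 fell by 1.76 ± 0.67 (0.023) and Ccr2 fell by 0.91 ± 0.34 (0.021). With saline, where 56% was called, Ccl2 fell by 2.81 ± 0.55 (adjusted p = 9.73e-06), Ccl3 fell by 2.92 ± 0.65 (8.47e-05) and Ccr2 fell by 1.35 ± 0.33 (0.000357). The saline calls held after centring for these 3 genes. For SKM, after centring (50.7% called again), Ccl2 held at -1.69 (adjusted p = 0.006), while Ccl3 (-1.27, 0.079) and Ccr2 (-0.42, 0.217) did not. Without immediate SKM day 3 replicate 8 the SKM differences of Ccl3 (-1.58) and Ccr2 (-0.81) both had an adjusted p of 0.0515. The Ccl3 call was also lost without immediate SKM day 3 replicate 2 (-1.49, 0.0662), and that of Ccr2 without immediate SKM day 7 replicate 1 (-0.81, 0.0526).

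After delayed injection limma called the same drop for Ccl2 and Ccr2 on the deposited scale, and not after centring. With SKM, where 48.5% of the panel was called, Ccl2 fell by 1.36 ± 0.55 (adjusted p = 0.036) and Ccr2 fell by 1.09 ± 0.33 (adjusted p = 0.008). With saline, where 61.2% was called, Ccl2 fell by 1.89 ± 0.53 (adjusted p = 0.002), with no overlap between the days, and Ccr2 fell by 1.38 ± 0.32 (adjusted p = 0.000361). Every called gene of the panel was lower in both arms, with medians of -0.41 for SKM and -0.56 for saline. After centring, with 0.746% called in each arm, the differences kept their sign at -0.97 for Ccl2 (adjusted p = 0.408) and -0.71 for Ccr2 (0.22) with SKM. With saline they were -1.26 for Ccl2 (0.275) and -0.75 for Ccr2 (0.226). The Ccl2 call with SKM was lost in 7 of 18 leave-one-out fits, with voom weights (adjusted p = 0.0536) and with only the groups compared (0.0985).

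Ranked over all 18 groups, Ccl2 covered the widest range, 8.42 on the log2 scale between the highest mean, 13.90 ± 1.59 (SD, n = 3) in SBI day 1, and the lowest, 5.48 ± 1.33 (n = 5) in delayed saline week 8. Ccl3 covered 5.81, Ccr2 4.67 and Ccl4 3.96. The low ends of Ccl2, Ccl3 and Ccr2 lie in day 84 or week 8 groups, whose panel median was low, and after centring the ranges were 7.14 for Ccl2, 4.27 for Ccl3, 3.86 for Ccl4 and 3.13 for Ccr2, so that Ccl4 and Ccr2 changed places. On the deposited scale immediate saline day 3 held the highest mean of Ccl3 (10.53), Ccl4 (5.95) and Ccr2 (11.69). On the centred scale SBI day 1 was highest in all 4. Most neighbours in the order were closer than the larger of their SDs. Of 17 neighbouring pairs on the deposited scale, 3 were further apart for Ccl2, 1 for Ccl3, and 0 for Ccl4 and Ccr2. The 3 for Ccl2 were the gaps below SBI day 3, below delayed SKM day 3 and below uninjured muscle. After centring, 1 pair was further apart for Ccl2 and 1 for Ccr2, both below SBI day 1, and 0 for Ccl3 and Ccl4.

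Group membership accounted for 81.7% of the variance of Ccl2 and 81.3% of that of Ccr2 on the deposited scale, against 60.1% for Ccl3 and 45.2% for Ccl4. After centring these shares were 74.7% for Ccl2, 66.4% for Ccr2, 43.5% for Ccl3 and 30.1% for Ccl4. The pooled SD within groups was 1.17 for Ccl2, 1.39 for Ccl3, 1.53 for Ccl4 and 0.71 for Ccr2.

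The genes whose centred group means tracked the members most closely were found over the 18 groups, as a description. For Ccl2 they were Tnfrsf1a, a TNF receptor gene (r = 0.974), Myd88, an adaptor of Toll-like and IL-1 receptors (0.968), and Ccr2 (0.966). For Ccl3 they were Nos2, the inducible nitric oxide synthase gene (0.949), Junb, an AP-1 subunit gene (0.946), and Ccl2 (0.942). For Ccl4 they were Ccr2 (0.806), Il10ra, an IL-10 receptor gene (0.804), and Myd88 (0.8). For Ccr2 they were Irf5, an interferon regulatory factor gene (0.978), Myd88 (0.969) and Ccl2 (0.966). Ccl3 and Ccl4, though neighbours on the chromosome, had r = 0.672 with each other, and Ccl3 ranked 26th among the genes nearest to Ccl4. Group means share libraries and the scale, so these values carry no test.

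Samples of 1 group that were high in 1 member tended to be high in the others. Over 124 samples, deviations from group means on the centred scale correlated for all 6 pairs. Ccl2 with Ccl3 was the closest, at a Pearson r of 0.611 and a Spearman rho of 0.625, both with a permutation p of 1e-05, the smallest that 100000 permutations can give. Ccl2 with Ccr2 gave r = 0.587 and rho = 0.549 (permutation p = 1e-05 for both). The other 4 pairs had r between 0.432 and 0.488 and rho between 0.41 and 0.429. The Benjamini-Hochberg adjusted permutation p over the 6 pairs was at most 4e-05. Without the 2 samples farthest from the median of the first gene, r was 0.627 for Ccl2 with Ccl3, 0.557 for Ccl2 with Ccr2 and between 0.402 and 0.46 for the others. On the deposited scale r ran from 0.454 to 0.661.

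Within the 14 groups of 6 or more samples, r was above 0 in 13 for Ccl2 with Ccl3 and for Ccl2 with Ccr2, and in 11 or 12 for the other pairs. It ran from -0.464 to 0.889 for Ccl2 with Ccl3 and from -0.104 to 0.866 for Ccl2 with Ccr2. On the deposited scale, which keeps each sample's own scale, a single sample held the highest value of all 4 genes in 8 of the 18 groups. One was SBI day 31 replicate 1, at 1333 for Ccl2, 396 for Ccl3, 67.7 for Ccl4 and 2063 for Ccr2. Another was immediate SKM day 7 replicate 7, at 2459, 1255, 193 and 3865. SBI day 3 replicate 9 was also among the 8. After centring, its Ccl2 (1.97) lay below that of replicate 2 (2.23).

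**Figure D4:**
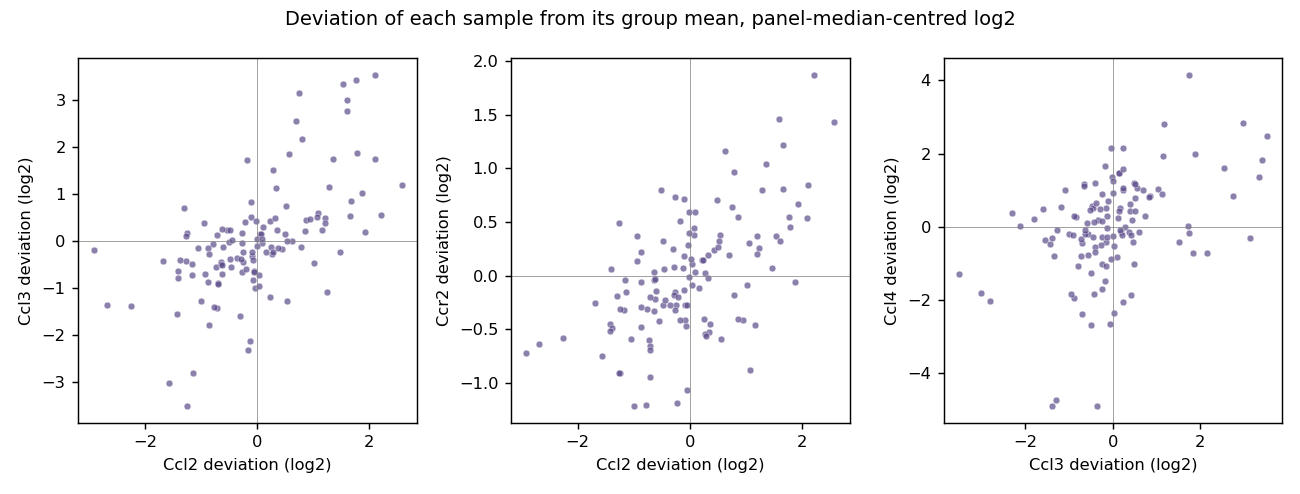
Each point is 1 of 124 samples, placed by the deviation of each gene from its group mean on the panel-median-centred log2 scale, for Ccl2 with Ccl3, Ccl2 with Ccr2 and Ccl3 with Ccl4. The clouds slope upwards, with Pearson r of 0.611, 0.587 and 0.439, and the lowest Ccl4 points are samples with 0 counts.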

How the data were processed

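Per the labels' protocols, a fibrous-tissue kit gave the RNA, which was hybridised with a custom nCounter codeset. The authors deposited a value table of normalized signal on a linear scale for 127 samples and 134 probes; no source used here gives the normalization or its software. The authors' deposited workbook holds log2 fold changes between groups, with other columns of p-values and q-values that were not used. Of the 136 gene names of that workbook, 2, Ppard and Pparg, were set aside beforehand as being on no probe. The other 134 were assigned to the rows by value, with 133 of 133 neighbours in alphabetical order. The rows named Ikbkb and Prkaa1 came closer to another row's values (0.2325 against 0.068 and 0.4253 against 0.2101) and are uncertain by value. So is Dcn, a gene of the fibroblast list, which was compared on 1 value only (0.0009 against 0.0001 for another row). All 16829 signal values above the floor of 0.1 in the deposited table were whole multiples of a per-sample step (tolerance 0.05), which gave the counts. One count was worth 0.563 to 4.281 units of signal.

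Samples were grouped by the labels. Values were taken as log2(value + 1), a scale on which low genes change less than they should. One model held all 18 groups with 1 mean each (lmFit and eBayes of limma 3.58.1 under R 4.3.3). Benjamini-Hochberg adjustment ran over 134 genes within each of 32 comparisons, at a threshold of 0.05. The fit was tested on simulated data. Python 3.11.15 with numpy 2.4.6, pandas 2.3.3, scipy 1.17.1 and matplotlib 3.10.9 served for the rest. Alternatives were centring on the panel median, a pseudocount of 10, only genes with a mean value of at least 50, sample weights, only the groups compared, a replicate block, identical samples kept apart, and leaving out each sample.

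The members, the 8 gene lists and the tests were chosen with earlier results of these data known. Named genes are the 4 members, the 3 genes with the closest group means to each, and of each list up to 4 called genes with the largest differences; Adgre1 was also named where it did not pass, after its values were seen. In no comparison with 3 or more pairs of the same replicate number did every pair of deviations correlate over 0.1 (correlations from -0.819 to 0.957), so no pairing was used. The promoter came from RefSeq (GRCr8); the lists for neutrophils, lymphocytes, endothelium and fibroblasts, with 2, 4, 2 and 4 genes on the panel, gave the calls below. At SBI day 1 they had 1, 0, 0 and 0 genes higher and 0, 2, 1 and 3 lower than uninjured muscle, and in delayed SKM against saline at day 7 0, 0, 1 and 0 higher and 0 lower. One panel gene of a list is not reported here.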

Additional observations from a re-analysis of the deposited data

Results flagged for a closer look

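In groups of 4 to 10 samples, 60 gene-by-group sets of log2 values were searched for a highest or lowest sample far from the rest by Dixon's criterion, and 5 stood out. Chance gives about 1 in 20. Ccl2 read 1332.73 in SBI day 31 replicate 1, against 198.22 in the next of 6 samples. Ccl3 read 3846.43 in SBI day 7 replicate 1, against 360.88 in the next of 6. Ccl3 also read 2703.99 in immediate saline day 7 replicate 7, against 437.69 in the next of 9, and 1254.87 in immediate SKM day 7 replicate 7, against 184.83 in the next of 8. Ccl4 stood at the floor of 0.1, from 0 counts, in SBI day 7 replicate 3, against 33.13 in the next of 6. The samples that were high in Ccl3 after immediate injection were the highest of their groups in all 4 genes.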

How the results depend on the processing

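The limits are few uninjured samples, few Ccl4 counts and a deposited scale that no source explains. Centred on the panel median, Ccr2 at day 84 against uninjured stood at 0.078, the opposite sign; called differences between times numbered 9 in place of 14, and those of saline against injury alone 0 in place of 2. Sample weights gave 8 calls of SKM against saline (2 in the main fit), 7 of saline against injury alone, 6 of SKM against injury alone (3) and 6 in SKM effect by timing (0). In the timing comparison sample weights called 75 genes of the whole panel at day 3 and 39 at day 7. Panel counts for the other 3 sets follow, for immediate days 3 and 7, then delayed day 3, day 7 and week 8. SKM against saline had 31, 4, 61, 56 and 1 (main fit 0, 0, 9, 20 and 0). Saline against injury alone had 79, 2, 32, 106 and 0 (60, 3, 3, 73 and 0). SKM against injury alone had 85, 17, 72, 90 and 1 (50, 0, 17, 53 and 0). For the members they gave 15 calls against uninjured (10) and 20 between times. With only the groups compared these were 4 for SKM against saline, 1 for SKM against injury alone, 1 for timing, 8 against uninjured and 11 between times. Voom weights, chosen after seeing the data, gave 1 for SKM against saline, 8 against uninjured and 13 between times. With the replicate number as a block (replicate block), SKM against injury alone had 1 call (Ccl2 and Ccr2 at delayed day 3 were lost, at adjusted p of 0.0934 and 0.0771), injury against uninjured 11, SKM against saline 3, saline against injury alone 3, between times 14 and timing 0. Leaving out 1 sample at a time gave 6 to 11 calls against uninjured (10 in the main fit), 0 to 4 for SKM against saline, 1 to 3 for saline and 1 to 4 for SKM against injury alone, 12 to 16 between times, 0 to 2 for timing and 4 in every such fit for any injury day. Leaving out day 84 and week 8, also chosen afterwards, gave 9, 2, 2, 3, 14 and 0 calls in that order. Of the 128 gene-by-comparison values, a pseudocount of 10 left 125 alike in direction and call and keeping identical samples apart 125. The filter at a mean of 50 removed Ccl4. The exact permutation test was added afterwards. The planned count-model test and its second normalization were not run.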
